A study of Mus musculus with 6 samples.

Results

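Axonemal dyneins are the motors that bend motile cilia. They stand on the outer microtubule doublets in rows of outer and inner arms, and each arm holds heavy chains, which carry the motor, and smaller intermediate and light chains, which join the motors to each other and to the doublet. Ependymal cells, which line the brain ventricles, use beating tufts of such cilia to move cerebrospinal fluid. The 8 genes described here encode non-heavy chains of these arms: Dnaic1 and Dnaic2 (intermediate chains of the outer arm), Dnal1 (a leucine-rich light chain of the outer arm), Wdr63 and Wdr78 (intermediate chains of an inner arm), Dnali1 (an inner arm light chain), Dynlrb2 (a roadblock-type light chain that cytoplasmic dynein can also carry) and Dnal4 (a light chain of the axonemal family). They were taken by gene symbol, and all 8 were found among the 22851 genes of the count table.

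The RNA came from mouse radial glial cells of C57BL/6J background, isolated from brains at ages P0 to P3, grown with serum and then kept without serum for 6 days so that they differentiate into multiciliated ependymal cells. One group was wild type (WT) and the other came from Edf1 knockout mice made by CRISPR/Cas9 editing, with 3 biological replicates each per the design text. The labels call all 6 libraries multiciliated ependymal cells, but the cultures were not sorted in any step they record. The Edf1 protein is a coactivator of transcription and also binds ribosomes that have collided on an mRNA.

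Total counts were 13071766 to 28087006 per library, and WT replicate 2 had the lowest. Counts of the 8 genes ran from 419 to 7594 per library, so all 8 passed the filter on low counts. Edf1 had 80.2 to 85.9 CPM (counts scaled to library size and composition) in WT and 9.84 to 13.2 CPM in knockout libraries, a level of 13.7% of WT, so the targeted gene followed the labels. Of 10 ependymal marker genes all 10 were detected and tested in the cultures, and the same RNA held the 12 radial glial and astrocyte markers at levels from 0.876 CPM (Hes5) to 6273 CPM (Vim) as WT means.

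Promoter sequences are shown first for the 7 of the 8 genes that RefSeq's table (GRCm38.p6) holds, all but Wdr78. In the knockout 5 of these 7 fell by different amounts, and Dnal1 and Dnal4 did not pass the test described further on. Of all tested genes, 14.2% were called lower by that test. Each line gives the 150 bases before the transcription start in RefSeq, 5′ to 3′ on the strand of the gene. Capitals mark a match to the X-box, the site bound by RFX transcription factors, which act on many cilia genes.
Dnaic2: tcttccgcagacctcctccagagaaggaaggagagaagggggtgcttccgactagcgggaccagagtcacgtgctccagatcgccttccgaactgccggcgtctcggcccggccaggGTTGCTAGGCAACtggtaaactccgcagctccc
Dnaic1: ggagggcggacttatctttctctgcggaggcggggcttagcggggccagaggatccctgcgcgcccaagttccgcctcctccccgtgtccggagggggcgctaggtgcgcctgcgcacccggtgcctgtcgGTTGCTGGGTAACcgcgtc
Dynlrb2: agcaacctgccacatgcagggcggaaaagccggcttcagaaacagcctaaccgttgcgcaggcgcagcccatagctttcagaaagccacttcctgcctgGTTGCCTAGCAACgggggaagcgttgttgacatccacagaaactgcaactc
Wdr63: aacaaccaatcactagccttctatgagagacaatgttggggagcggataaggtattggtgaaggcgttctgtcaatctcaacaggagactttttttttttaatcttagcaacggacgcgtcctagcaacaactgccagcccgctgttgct
Dnali1: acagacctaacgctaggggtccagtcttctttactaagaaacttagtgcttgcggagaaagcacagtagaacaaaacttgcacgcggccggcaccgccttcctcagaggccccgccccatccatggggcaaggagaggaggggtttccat
Dnal1: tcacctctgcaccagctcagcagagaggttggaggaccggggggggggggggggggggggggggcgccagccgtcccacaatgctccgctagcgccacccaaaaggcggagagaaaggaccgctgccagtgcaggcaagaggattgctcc
Dnal4: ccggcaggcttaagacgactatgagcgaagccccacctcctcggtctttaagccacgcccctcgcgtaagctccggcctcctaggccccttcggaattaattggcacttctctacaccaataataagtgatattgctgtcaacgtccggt
These stretches lie at chr11:114727269-114727418 and chr4:41569644-41569793 for the outer arm intermediate chains, both on the plus strand, and at chr8:116504865-116505014 (plus strand) for Dynlrb2. They lie at chr3:146108037-146108186 (minus strand) for Wdr63, chr4:125065658-125065807 (minus strand) for Dnali1, chr12:84114178-84114327 (plus strand) for Dnal1 and chr15:79774468-79774617 (minus strand) for Dnal4. The gene positions given further on are from GENCODE, whose starts differ: the RefSeq start of Dnal4 lies 3382 bases inside the GENCODE gene, so the bases before its GENCODE start were not searched. For the other 6 genes the starts differ by 11 to 94 bases.

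The X-box was searched on both strands of the whole window, 250 bases before to 50 after the start, with 0 to 3 bases between its arms. It matched in 3 of the 7 genes: Dnaic2 (GTTGCTAGGCAAC, from -33 to -21 relative to the start), Dnaic1 (GTTGCTGGGTAAC, from -19 to -7) and Dynlrb2 (GTTGCCTAGCAAC, from -51 to -39). Wdr63 and Dnali1, which also fell, had no match, nor had Dnal1 and Dnal4. A relation of matches to the fall was not tested. Of 32851 promoter windows of the same length in the table, 1.53% hold a match. A different pattern tried first, GTTNCC and GGNAAC set 1 to 3 bases apart, matched none of the 7 (0.776% of all windows), so the X-box consensus was chosen after these sequences had been seen. GTAAACA, a forkhead-type motif, was in none of the 7 and in 3.65% of all windows. A match describes letters only, and its use by a factor was not measured.

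The central comparison asked which of these chains differ in RNA level between Edf1 knockout and WT in the differentiated cultures. Of the 8 genes, 6 fell in the knockout (edgeR's quasi-likelihood test, Benjamini-Hochberg adjusted p under 0.05 over all 14243 tested genes), and 0 rose. Over all tested genes, 14.2% were called lower and 12.7% higher. Dnaic2 and Wdr63 fell by more than 2-fold, and 1.69% of tested genes were called lower with a fall of at least 2-fold. Dynlrb2, Dnaic1, Dnali1 and Wdr78 fell by less, and Dnal1 and Dnal4 did not pass. The groups did not overlap for the 6 genes that fell, with every knockout library the lower, which was so for 22.1% of tested genes. The median log2 fold change of the 8 genes was -0.74, beside 0.0029 over all tested genes. In RNA from mixed cultures, fewer ciliated cells and less RNA per ciliated cell cannot be told apart.

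**Figure D1:**
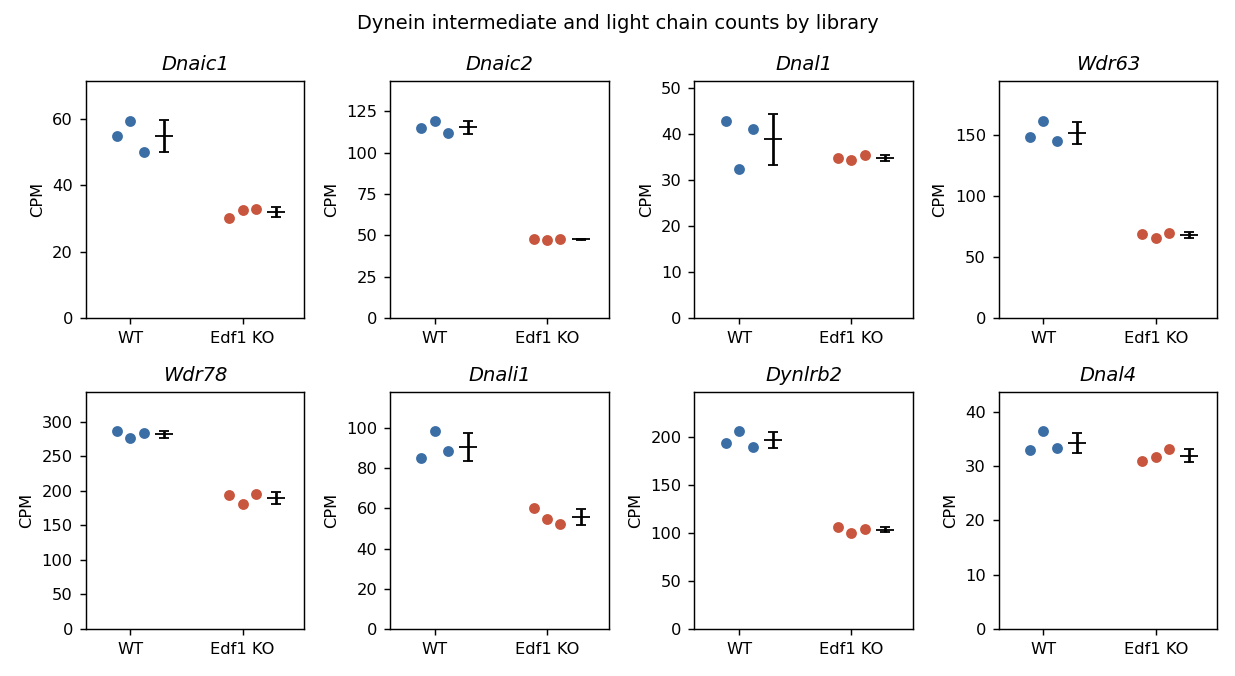
CPM of each gene (vertical axes, from 0) in the 3 WT libraries (blue) and the 3 Edf1 knockout libraries (red), with the mean and SD beside the points. The groups stand apart for 6 genes and overlap for Dnal1 and Dnal4.

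The outer arm intermediate chains did not fall equally. Dnaic2 lies at chr11:114727408-114757889 (GRCm38, plus strand) and had 115, 119 and 112 CPM in WT replicates 1, 2 and 3. It had 48.1, 47.2 and 47.5 CPM in knockout replicates 1, 2 and 3. Every knockout library lay far below every WT library, and the knockout mean was 41.3% of the WT mean. The log2 fold change was -1.28 (SE 0.055, adjusted p = 4.24e-08 by edgeR), the largest fall among the 8. Its partner Dnaic1, at chr4:41569775-41638158 (plus strand), had 54.9, 59.5 and 50.1 CPM in WT libraries and 30.1, 32.6 and 32.9 CPM in knockout libraries. The groups did not overlap here either, and the knockout kept 58.1% of the WT level; the log2 fold change was -0.78 (SE 0.075, adjusted p = 1.09e-05 by edgeR).

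Dnal1, the light chain that sits on an outer arm motor, did not pass the test. The gene lies at chr12:84114366-84147498 (plus strand). It had 42.98, 32.5 and 41.1 CPM in WT libraries and 34.7, 34.3 and 35.6 CPM in knockout libraries. The knockout libraries were close together, while WT replicate 2 lay below all of them and WT replicates 1 and 3 above, so the groups overlapped. The log2 fold change was -0.17 with a 95% interval from -0.37 to 0.033 (adjusted p = 0.204 by edgeR). Without WT replicate 2 the value was -0.27 and passed (adjusted p = 0.00238 by edgeR), and it also passed after a correction for GC content and transcript length (-0.21, adjusted p = 0.0466 by edgeR). Without WT replicate 1 it was -0.084. The counting of Dnal1 is less certain than that of the others, since 5.54% of its exon length overlaps exons of Pnma1 on the opposite strand and some of its 31-base stretches occur in another gene.

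The inner arm intermediate chains both fell, again by different amounts. Wdr63 (also named Dnai3), at chr3:146040526-146108130 (minus strand), had 149, 162 and 145 CPM in WT libraries and 69.4, 65.4 and 69.9 CPM in knockout libraries. The knockout level was 44.9% of WT with no overlap, and the log2 fold change was -1.15 (SE 0.060, adjusted p = 1.40e-07 by edgeR). Wdr78 (also named Dnai4), at chr4:103038065-103114555 (minus strand), is the chain with the most counts of the 8. It had 286, 276 and 284 CPM in WT libraries and 193, 180.2 and 196 CPM in knockout libraries. Every knockout library was lower, but 67.3% of the WT level remained, and the log2 fold change was -0.57 (SE 0.049, adjusted p = 4.21e-06 by edgeR).

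The inner arm light chain Dnali1, at chr4:125055338-125065703 (minus strand), also fell. It had 84.9, 98.4 and 88.4 CPM in WT libraries and 60.1, 54.7 and 52.3 CPM in knockout libraries. The groups were separate, and the knockout mean was 61.5% of WT. The log2 fold change was -0.70 (SE 0.072, adjusted p = 1.80e-05 by edgeR).

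Of the remaining light chains, Dynlrb2 fell and Dnal4 did not pass. Dynlrb2, at chr8:116504974-116515915 (plus strand), had 194, 206 and 189.5 CPM in WT libraries and 105.5, 99.95 and 104 CPM in knockout libraries. Its level in the knockout was 52.6% of WT, and its log2 fold change was -0.93 (SE 0.053, adjusted p = 2.56e-07 by edgeR). Dnal4, at chr15:79761453-79777849 (minus strand), had 32.9, 36.4 and 33.4 CPM in WT libraries and 30.99, 31.6 and 33.2 CPM in knockout libraries. The highest knockout library exceeded the lowest WT library, so the groups overlapped. The log2 fold change of Dnal4 was -0.094, and its 95% interval from -0.25 to 0.062 does not meet the interval of any of the 6 genes that passed (adjusted p = 0.372 by edgeR).

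**Figure D2:**
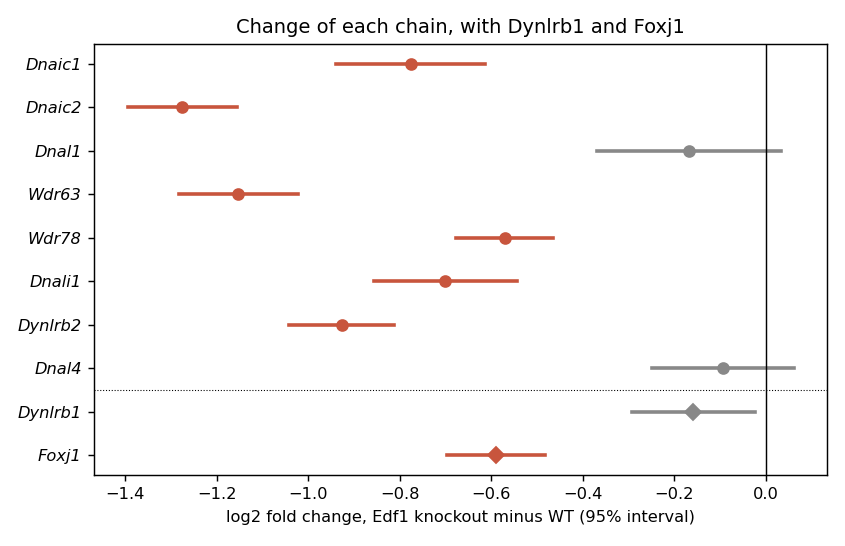
Log2 fold change of each gene, knockout minus WT (horizontal axis), with its 95% interval; red marks genes called lower and grey genes not called, and diamonds below the dotted line are the comparison genes Dynlrb1 and Foxj1. Intervals of Dnaic2 (-1.40 to -1.16) and Dnaic1 (-0.94 to -0.61) do not meet, nor do those of Wdr63 (-1.28 to -1.02) and Wdr78 (-0.68 to -0.46).

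To compare the chains with each other, the ratios between 4 pairs of genes were taken in each library, so that depth cancels. The Dnaic1 to Dnaic2 ratio of CPM on a log2 scale was -1.07, -1.01 and -1.16 in WT libraries, against -0.67, -0.53 and -0.53 in the knockout. It was thus higher in every knockout library, by 0.50 on average. The Wdr63 to Wdr78 log2 ratio was -0.94, -0.77 and -0.97 in WT libraries, against -1.48, -1.46 and -1.49 in the knockout, a difference of -0.58. The Dnali1 to Dnal1 log2 ratio, an inner against an outer arm light chain, was 0.98, 1.60 and 1.10 in WT libraries, against 0.79, 0.67 and 0.55 in the knockout, a difference of -0.55. Its WT spread is the widest of the 4 pairs, and WT replicate 2, in which Dnal1 was low, has the highest ratio. Without that library the difference was -0.37.

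Dynlrb2 was also set beside Dynlrb1, its paralog in cytoplasmic dynein. Dynlrb1 had 134, 152 and 133 CPM in WT libraries and 124, 129 and 121 CPM in knockout libraries, and its log2 fold change of -0.16 did not pass (adjusted p = 0.0773 by edgeR). The log2 ratio of Dynlrb2 to Dynlrb1 was 0.54, 0.44 and 0.51 in WT libraries, against -0.24, -0.37 and -0.22 in the knockout. In counts, Dynlrb2 therefore exceeded Dynlrb1 in every WT library and fell short of it in every knockout library. This crossing holds for counts only, since the exons of Dynlrb2 are shorter (0.556 against 1.009 kb). Per kb of exon, mean Dynlrb2 stayed above mean Dynlrb1 in WT (353 against 138 CPM per kb) and in the knockout (186 against 124). Neither gene shares a 31-mer with another gene in the annotation. All 4 ratios separated the groups completely, which gives p = 0.1 in the two-sided exact permutation test (also 0.1 when adjusted over the 4 ratios), the smallest value that 3 against 3 libraries allow.

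**Figure D3:**
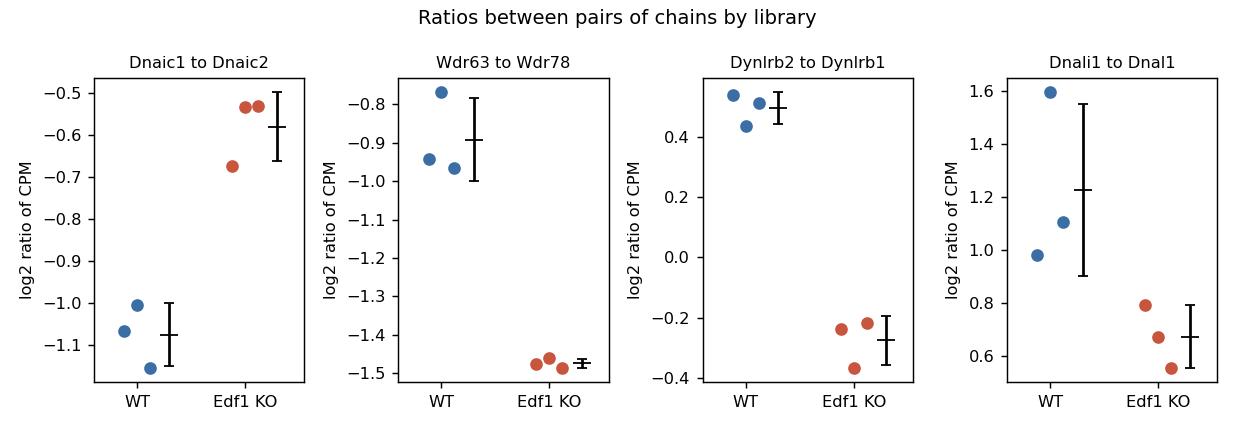
Log2 ratio of CPM between 2 genes in each library (vertical axes, which do not start at 0), with WT in blue, the knockout in red, and the mean and SD beside the points. The 3 knockout points lie on one side of the 3 WT points in each of the 4 panels.

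Foxj1, the main transcription factor of motile cilia genes, itself fell from 788 ± 43.4 to 523 ± 10.3 CPM (SD, n = 3), and the chains were described relative to it. The log2 ratio to Foxj1 was lower in every knockout library than in every WT library for 4 chains: the difference was -0.69 for Dnaic2, -0.56 for Wdr63, -0.34 for Dynlrb2 and -0.19 for Dnaic1. It overlapped between the groups for Dnali1 (-0.11) and Wdr78 (0.018). For Dnal4 (0.49) and Dnal1 (0.44), which did not pass the test themselves, it was higher in every knockout library, where Foxj1 was lower. Foxj1 itself changed by -0.59 on the log2 scale, whereas the middle value of all tested genes was 0.0029. A gene with no change would therefore also tend to have a higher ratio to Foxj1 in the knockout. How many of all tested genes had ratios to Foxj1 that separated the groups was not counted. The differences of the chains from Foxj1 were not tested.

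Levels between genes were compared per kilobase, using the union of annotated exons. In WT, Dynlrb2 was highest with 353 ± 15.0 CPM per kb (SD, n = 3), followed by Wdr63 (45.9 ± 2.67), Dnali1 (42.5 ± 3.28), Wdr78 (38.6 ± 0.73), Dnaic2 (25.3 ± 0.86), Dnaic1 (19.7 ± 1.70), Dnal4 (14.3 ± 0.80) and Dnal1 (5.61 ± 0.80). Only the neighbours Wdr63 and Dnali1 overlapped over the WT libraries. In the knockout the order was Dynlrb2 (186 ± 5.18), Dnali1 (26.1 ± 1.89), Wdr78 (25.97 ± 1.14), Wdr63 (20.6 ± 0.74), Dnal4 (13.4 ± 0.48), Dnaic1 (11.5 ± 0.55), Dnaic2 (10.4 ± 0.098) and Dnal1 (5.03 ± 0.093), and only Dnali1 and Wdr78 overlapped. Wdr63 thus moved below Dnali1 and Wdr78, and Dnaic2 below Dnaic1 and Dnal4. These positions depend on the length used: per kb of the longest transcript, Dnaic2 remained above Dnaic1 in the knockout (16.6 against 12.7 CPM per kb), and Wdr78 was above Wdr63 already in WT (54.1 against 47.9). Dynlrb2 was highest and Dnal1 lowest with either length in both genotypes.

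Other genes of the dynein arms were read from lists of the same pathway, beside 14.2% of all tested genes called lower. Among further non-heavy chain genes, Tctex1d4 (-1.35), Nme9 (-1.20) and Casc1 (-0.77) fell in log2 fold change, Tcte3 had 0.18 and did not pass, and Nme8 had too few counts to be tested. Of the heavy chains, 4 of 5 of the outer arm and 8 of 10 of the inner arm fell, with medians of -0.35 and -0.77. Dnah7a, Dnah7b and Dnah7c of the inner arm are near copies of each other, so their separate counts are uncertain. The outer arm heavy chains ran from -1.74 for Dnah11 to 0.040 for Dnah17, which did not pass. Some heavy chains in these counts had low levels, with WT means of 5.55 CPM for Dnah17, 3.68 for Dnah8 and 1.76 for Dnah14. Genes of outer arm docking fell in 6 of 7 cases (median -0.70), and the factors that assemble arms in the cytoplasm in 17 of 17 tested cases (median -0.57), from Dnaaf1 (-1.26) to Pih1d1 (-0.38). Of the rulers and tethers of the inner arms, 4 of 5 fell (median -0.46).

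The chains of dyneins outside the axoneme were read in the same way. In cytoplasmic dynein-1, with its shared light chains, 4 of 13 genes fell and 1 rose (median -0.029). Over all tested genes 14.2% were called lower and 12.7% higher, or 26.9% in either direction. The gene that rose was the heavy chain Dync1h1 (0.27), and the lowest value belonged to the light chain Dynlt1c (-0.58). Near-identical copies of the Dynlt1 genes make their separate counts uncertain. Of the dynein-2 genes, whose motor carries cargo back along the cilium, 4 of 5 fell (median -0.33). Their values ran from -1.26 for Wdr60 to -0.20 for Dync2h1, which did not pass.

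**Figure D4:**
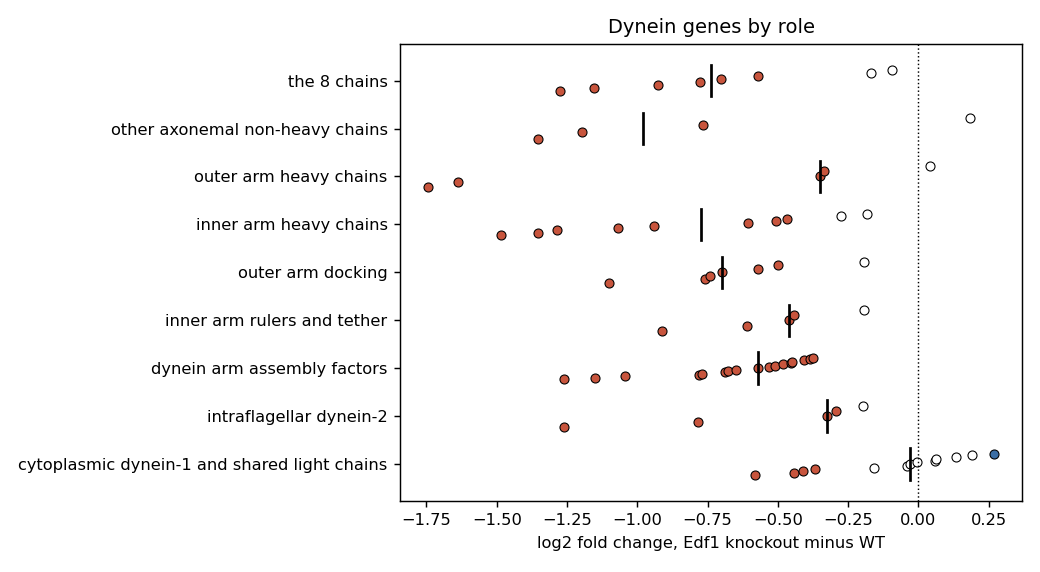
Log2 fold change, knockout minus WT (horizontal axis), of each tested gene in 9 role groups; red points were called lower, blue higher and white not called, and the black bars are medians. Medians are -0.74 for the 8 chains and -0.029 for cytoplasmic dynein-1 and the shared light chains.

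Markers of several cell types were read beside these genes, with 14.2% of all tested genes called lower and 12.7% higher. All 10 ependymal markers fell, and their summed level was 1467 to 1709 CPM in WT libraries and 833 to 881 CPM in knockout libraries. For comparison, the 8 chains summed to 943 to 989.8 CPM in WT libraries and 546 to 572 CPM in knockout libraries. Of 10 microglial markers 9 fell (summed 1119.8 to 1162 against 753 to 795 CPM). Of 8 tested fibroblast and mural markers 7 rose (577 to 617 against 737 to 826 CPM summed over the 12 listed, endothelial genes included). Acta2, which was among the 7, made up most of this sum (means of 475 CPM in WT and 586 CPM in knockout libraries). The endothelial markers Pecam1, Cdh5 and Cldn5 had too few counts to be tested, and Cldn5 had no more than 3 over all libraries. Among 12 radial glial and astrocyte markers 3 rose, 1 fell and 8 were not called. Their summed level was 10549 to 11036 CPM in WT and 11474 to 11907 CPM in knockout libraries, higher in each of the latter. Most of that sum was Vim, which was not called (means of 6273 CPM in WT and 6849 CPM in knockout libraries). Most markers in the remaining lists were not called: 2 of 7 tested neuron markers fell. For the oligodendrocyte lineage 1 of 6 tested markers rose, and for the choroid plexus 1 of 5. The part of these shifts in the fall of the dynein chains was not tested.

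The genes most like the 8 chains were those whose centred log2 CPM lay nearest to the median profile of the chains over the 6 libraries. They were Poc5 (root mean square distance 0.023 in log2 units), which encodes a centriole protein, Lrwd1 (0.027), the retinal reductase gene Dhrs3 (0.028), and the cilia-associated genes Cfap126 (0.028) and Cfap52 (0.028). The median distance of all other tested genes was 0.40. The 6 libraries fall into 2 genotypes, and Poc5, for example, had 98.4 ± 4.77 CPM in WT libraries and 58.4 ± 1.59 CPM in knockout libraries (SD, n = 3).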

How the data were processed

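Per the submitters' processing notes, FastQC 0.11.2, cutadapt 1.11, HISAT2 2.1.0 and the genome build GRCm38 were used; the counting program, annotation and strand setting are not given in the sources used here. The authors deposited whole-number read counts per gene symbol, 1 column per library; 0 columns were left unused. The members, the gene lists and the tests were chosen with earlier results of these data known.

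The counts were fitted in R 4.3.3 with edgeR 4.0.16 (filterByExpr, TMM factors of 0.985 to 1.01, quasi-likelihood test, no covariate) on all 6 libraries, which left 14243 of 22851 genes, with Benjamini-Hochberg adjustment and a threshold of 0.05. Standard errors were obtained from each log2 fold change and its F statistic. Alternatives used DESeq2 1.42.0 and limma 3.58.1 and the settings listed further on. The main edgeR, DESeq2, limma voom, replicate block and GC and length fits were also run on simulated counts. These were drawn from the main fit with 200 genes changed, fewer than were called in the data, so no result rests on them. Log2 CPM used a prior count of 2, and CPM ratios used none. Positions, exon lengths and 31-mers came from GENCODE M21 (GRCm38), whose build is the one the processing notes name. If strand was not used in counting, reads of overlapping genes cannot be told apart: exons on the opposite strand cover 5.54% of Dnal1, 2.02% of Dnali1, 1.78% of Wdr78 and 0.539% of Dnaic1.

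All 8 chains were named; from each list the lowest and highest gene could be named, with Foxj1, Dynlrb1 and the 5 nearest profiles. Nme9, Casc1, Nme8, Dnah8, Dnah14, Vim, Hes5, Acta2, Pecam1, Cdh5 and Cldn5 were named after their values were seen. Counts limit precision, and the intervals given come from the fit.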

Additional observations from a re-analysis of the deposited data

How the results depend on the processing

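The 14 alternatives of the fit were DESeq2 size factors, library size alone, no filter beyond 1 count, DESeq2, limma voom, the replicate block, a correction for GC content and transcript length, each of the 6 libraries left out, and a threshold of 0.01. The number of the 8 chains called lower was 6 in 12 of them and 7 without WT replicate 2 and under the GC and length correction, where Dnal1 passed. None of the 14 called a chain higher, and all kept the 8 directions. Dnaic1, Dnaic2, Wdr63, Wdr78, Dnali1 and Dynlrb2 passed in each. Over the alternatives, adjusted p ran from 0.00238 to 0.597 for Dnal1 and from 0.350 to 0.626 for Dnal4 by edgeR, DESeq2 or limma. The median of the 8 log2 fold changes ran from -0.77 to -0.68.

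The count of changed genes, 3833 with 2029 lower, became 2213 with 1248 lower at a threshold of 0.01, which is stricter by construction. It ran from 2658 to 4340 over the fits that left out 1 library. With the replicate block it was 4065, and the block changed no call of a chain. Deviations from the group mean correlated by 0.069, 0.060 and 0.037 between libraries of one number, so no pairing was assumed. For the 4 ratios the block gave the same mean differences, and the exact sign-flip test gave p = 0.25, the smallest value 3 pairs allow. No ratio changed direction with a pseudocount or without any 1 library. The length used per kb was varied after the data were seen.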
